A study of Mus musculus with 6 samples.

Results

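Myeloid C-type lectin receptors were followed here through 9 genes picked by name from the 55357 genes measured in cultured mouse astrocytes: Clec4n, Clec4d, Clec4e, Clec4a1, Clec4a2, Clec4a3, Clec5a, Clec12a and Clec10a. They were picked because their levels had already been seen to be low in 1 of the groups compared, so that contrast is described for them and not tested. Cortical astrocytes were cultured from late-embryonic C57BL/6 mice. In 3 cultures (KE), the cells had received a plasmid in which the CMV promoter drives FLAG-tagged BRAF carrying the RASopathy substitution K499E, and they were harvested 48 hours later. In the study's imaging of such cultures a GFP plasmid was added, and whether it was added here is not stated. The other 3 cultures (NT) received no plasmid, and no culture with an empty plasmid or with wild-type BRAF is among the samples analysed here, so transfection and BRAF KE cannot be told apart. The CMV promoter is not restricted to astrocytes. The sources do not state that the 3 cultures of a group came from different animals, so p-values measure only the spread between these samples.

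C-type lectin receptors of this kind are single-pass membrane proteins of macrophages, microglia, monocytes, neutrophils and dendritic cells. They bind sugars, glycolipids or products of dying cells outside the cell. Activating members borrow the adaptor Fcer1g (FcRγ) or Tyrobp (DAP12), whose phosphorylated tyrosines recruit the kinase Syk and, further on, Card9, whereas inhibitory members recruit phosphatases such as Ptpn6 (SHP-1) through a motif in their own tail. In the brain they are known from microglia and from the macrophages of its borders, and astrocytes are not their usual source.

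The values are normalized counts, that is, gene counts divided by a scale factor of each sample, and log2FC is the difference of the KE and NT means of log2(normalized count + 1), which understates the change of low genes. The totals of 30472429 to 30895529 per culture are evened out by this scaling. The approximate depth was 24490487 reads in KE replicate 2 and 29529461 to 34144743 reads in the other cultures. Of the 15280 genes with a mean of at least 10, limma called 51.3% in either direction at a Benjamini-Hochberg adjusted p under 0.05. Braf, the gene on the plasmid, was at 34933 to 40978 in the KE cultures and 811 to 946 in the NT cultures, as labelled.

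All 8 receptor genes that passed the filter on low values were lower in every KE culture than in any NT culture, with log2FCs from −5.05 to −3.36 and a median of −4.001. What was left in KE was 3.30% to 9.39% of the NT mean. Among all genes tested, 29.9% were lower in every KE culture than in any NT culture, 26% were called lower, 1.59% had a log2FC below −3, and the median log2FC was 0.00. Since the genes were picked for this contrast, nothing is read from their count beside that background. The filter did not select them through NT alone, because each of the 8 also had a mean of at least 10 in KE, from 18.9 to 80.2. In bulk samples, fewer cells of a type and less RNA per cell cannot be told apart.

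**Figure D1:**
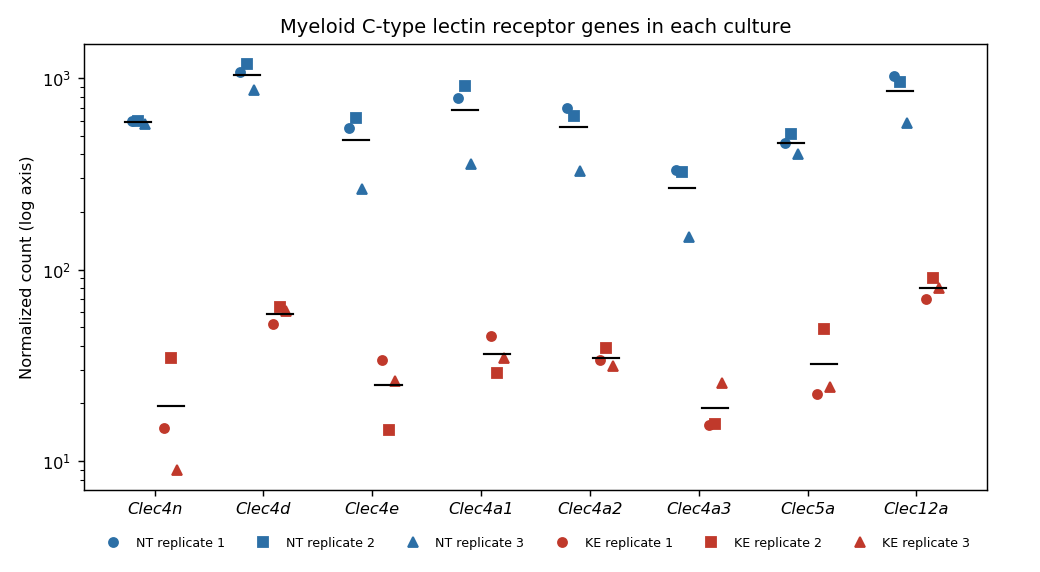
Normalized count (log axis) of the 8 receptor genes above the filter, 1 symbol per culture, with NT in blue, KE in red and the group mean as a bar. The groups do not overlap for any of the 8 genes, and NT replicate 3 is the lowest NT culture for each.

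Clec4n, Clec4d and Clec4e are the activating members that neighbour each other on chromosome 6 of GRCm39. Clec4n (ENSMUSG00000023349, chr6:123206802-123223980, plus strand) encodes Dectin-2, a receptor for fungal mannans that signals through Fcer1g. Its normalized counts were 14.98, 34.5 and 9.04 in KE replicates 1, 2 and 3 and 595, 600 and 577 in NT replicates 1, 2 and 3. The NT cultures were nearly level for Clec4n, while KE replicate 2 lay above the other KE cultures. The means were 19.5 ± 13.3 in KE and 591 ± 12.2 in NT (SD, n = 3 each), a log2FC of −5.05 (SE 0.35), and 3.30% of the NT mean was left, the smallest share among the 8 genes. The KE values rest on approximately 16.6, 27.6 and 9.98 reads.

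Clec4d (ENSMUSG00000030144, chr6:123239070-123252230, plus strand) encodes MCL, also called Dectin-3, a receptor for the mycobacterial cord factor. It was at 52.1, 63.8 and 60.7 in the KE cultures and at 1072, 1182 and 866 in the NT cultures. Both groups were narrow, and the lowest NT culture was 13.6 times the highest KE culture. The log2FC was −4.11 with an SE of 0.14, the smallest SE of the 8. Clec4e (ENSMUSG00000030142, chr6:123258748-123266829, minus strand) encodes Mincle, which senses cord factor and products of damaged cells. It was at 33.9, 14.6 and 26.2 in KE and at 547, 616 and 265 in NT. NT replicate 3 had 45.5% of the mean of the other NT cultures, and KE replicate 2, the high one for Clec4n, was the low one for Clec4e. The log2FC of Clec4e was −4.19 (SE 0.34), with 5.23% left.

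Clec4a1, Clec4a2 and Clec4a3 belong to the dendritic cell immunoreceptor (DCIR) branch of the same cluster. Clec4a2 (ENSMUSG00000030148, chr6:123083387-123120958, plus strand) encodes DCIR1, an inhibitory receptor. It was at 33.6, 39.0 and 31.5 in KE and at 697, 632 and 329 in NT, a log2FC of −3.89 (SE 0.25). The KE cultures differed little from each other, while NT replicate 3 had 49.5% of the mean of the other NT cultures. Its level is less certain than those of the other 7 genes above the filter, because 12.6% of the 31-base stretches of its canonical transcript also occur in transcripts of other genes, most often in Clec4a4. Clec4a1 (ENSMUSG00000049037, chr6:122896122-122911578, plus strand), or DCIR4, was at 45.1, 28.8 and 34.4 in KE and at 786, 909 and 355 in NT, a log2FC of −4.12 (SE 0.30). Clec4a3 (ENSMUSG00000043832, chr6:122929380-122948807, plus strand), or DCIR3, was at 15.4, 15.7 and 25.6 in KE and at 332, 325 and 147 in NT, a log2FC of −3.70 (SE 0.32). For both, NT replicate 3 was under 50% of the mean of the other NT cultures, at 41.9% for Clec4a1 and 44.9% for Clec4a3. Clec4a3 had the narrowest gap of the 8 genes, its lowest NT culture being 5.76 times its highest KE culture.

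Clec5a and Clec12a lie on chromosome 6 outside that cluster. Clec5a (ENSMUSG00000029915, chr6:40551234-40562773, minus strand) encodes MDL-1, an activating receptor that pairs with Tyrobp and Hcst. It was at 22.3, 49.2 and 24.5 in KE and at 461, 510 and 400 in NT. As for Clec4n, KE replicate 2 was the high KE culture, at 210% of the mean of the other KE cultures, and the log2FC was −3.88 (SE 0.26). Clec12a (ENSMUSG00000053063, chr6:129319654-129342266, plus strand) encodes MICL, an inhibitory receptor for uric acid crystals. It was at 70.3, 90.04 and 80.2 in KE and at 1030, 952 and 580 in NT. Clec12a had the smallest difference of the 8, a log2FC of −3.36 (SE 0.20), and kept 9.39% of its NT mean. Clec10a (ENSMUSG00000000318, chr11:70047023-70061660, plus strand) encodes MGL1, a galactose-type lectin of macrophages and dendritic cells, and is the member on another chromosome. It was at 1.98 in NT replicate 1 and at 0 in the other 5 cultures. A value of 0 allows up to 3 reads, worth 2.71 to 3.75 normalized counts here, so Clec10a did not pass the filter, gets no fold change and was not detectable as different at this depth.

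Per kilobase of canonical transcript, the order of the NT levels was Clec4d (783 ± 120), Clec4n (476 ± 9.80), Clec4a1 (439 ± 187), Clec12a (341 ± 96.1), Clec4a2 (223 ± 79.2), Clec4e (189 ± 74.0), Clec5a (104 ± 12.6) and Clec4a3 (81.6 ± 31.8) (SD, n = 3). Clec4d lay above the range of Clec4n, and every other neighbouring pair in that order overlapped. In KE, Clec4d again led, at 44.3 ± 4.57 normalized counts per kilobase and with no overlap with Clec12a, the next at 32.04. Clec4n, next to the top in NT, stood below Clec12a and Clec4a1 in KE, at 15.7, and Clec4a3 was last in both groups, at 5.75 in KE. All neighbouring pairs below Clec12a, and Clec12a with Clec4a1, overlapped in KE.

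The receptor genes did not vary alike among cultures of 1 group. NT replicate 3 was the lowest NT culture for all 8 genes, but its level ran from 41.9% of the mean of the other NT cultures for Clec4a1 to 96.5% for Clec4n, with a median of 54.0%. Clec4a1, Clec4a3, Clec4e, Clec4a2 and Clec12a were at 41.9% to 58.5%, and Clec4d, Clec5a and Clec4n at 76.9% to 96.5%. Chromosomal position did not separate these sets: Clec4d and Clec4e lie side by side, at 76.9% and 45.5%. Over 23 signalling partners the median was 75.5%, and over 19 markers of microglia and macrophages it was 83.8%, with a lowest value of 59.8%, that of Adgre1. NT replicate 3 did not stand apart in depth, at approximately 32089121 reads. In KE, replicate 2 had 287% of the mean of the other KE cultures for Clec4n and 48.6% for Clec4e, with a median of 116% over the 8 genes. Over the 23 signalling partners its median was 106%. Over the 19 markers of microglia and macrophages it was 143%, with a highest value of 208%, that of Trem2. Leaving out each culture in turn kept the median log2FC of the 8 genes between −4.23 and −3.83.

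**Figure D2:**
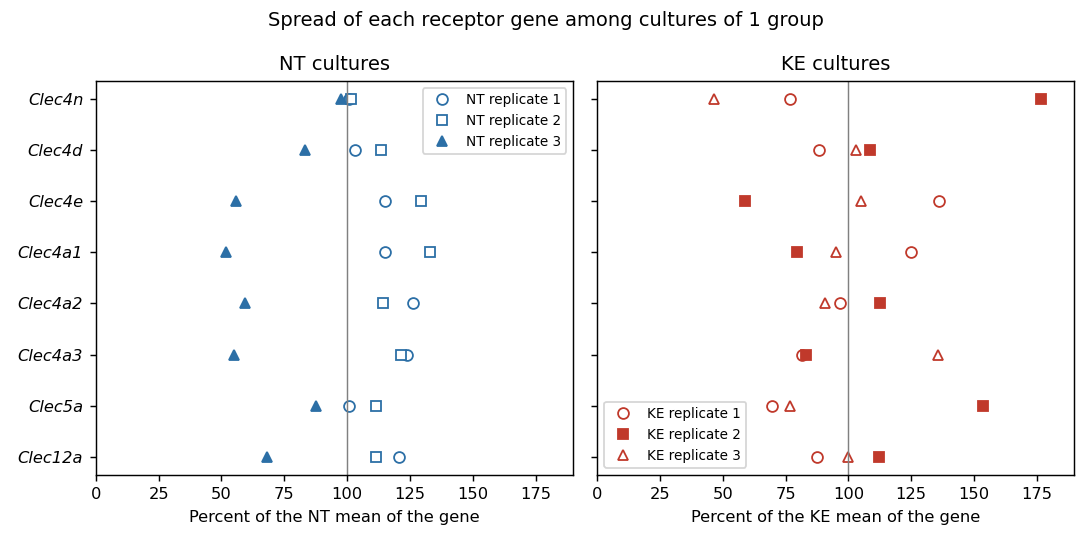
Each culture's normalized count as a percent of its group mean (line at 100), for NT (left) and KE (right), with NT replicate 3 and KE replicate 2 filled. NT replicate 3 lies left of the line for every gene and is close to it for Clec4n, whereas KE replicate 2 is the highest KE culture for some genes and the lowest for others.

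Genes of the related lists also differed from each other in NT replicate 3. Its level, as a percent of the mean of the other NT cultures, ran from 31.7% to 94.7% over the 13 targets tested (median 57.5%), with 38.9% for Tnf and 48.1% for Ccl3. Over the 25 other C-type lectin genes tested it ran from 52.8% for Cd69 to 164% (median 97.3%), with 61.7% for Cd72, 102% for Clec7a and 111% for Mrc1. Among the markers of microglia and macrophages, Aif1 was at 66.2%, Fcrls at 72.0%, Cd68 at 76.5%, C1qa at 90.4% and Cx3cr1 at 95.6%. These named genes were chosen after their values were seen. What sets NT replicate 3 apart was not tested.

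The markers of microglia and macrophages moved with the receptors. Of 20 listed markers, 19 passed the filter, and limma called 18 lower and 0 higher, with a median log2FC of −3.12. Over all genes tested, 26% were called lower and 25.3% higher. The tested marker that was not called was Sall1, with a log2FC of 0.03 (limma, Benjamini-Hochberg adjusted p = 0.667). Sall1, a transcription factor known from microglia and also from neural progenitor cells, was at 2717 to 2912 in KE and 2678 to 2856 in NT, while Siglech, a microglia marker, was at 0 in every culture. The summed markers were at 9749 to 12693 in KE and 64853 to 80330 in NT, which left 14.5%, or 11.2% without Sall1. With 3 cultures against 3, the exact two-sided permutation p was 0.1, the smallest possible. Beside these, the summed receptors were at 288, 336 and 292 in KE and 5522, 5727 and 3520 in NT, with 6.20% left. The part of a smaller number of such cells in the receptor differences was not tested.

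Relative to the summed markers, the receptor genes were also lower in KE. Per 1000 normalized counts of the 20 markers, the receptors summed to 29.5, 26.4 and 29.0 in KE and to 69.7, 71.3 and 54.3 in NT. No KE culture reached the NT range, and the KE mean was 0.435 of the NT mean, a log2 ratio of −1.20. Sall1, which did not move with the other markers, made up 21.9% to 28.9% of that marker sum in KE and 3.38% to 4.13% in NT. Without it, the means were 38.5 ± 4.05 and 67.5 ± 9.51 (SD, n = 3 each), still without overlap, and the ratio was 0.570 (−0.81 on the log2 scale). The genes differed among themselves on this scale. Clec4n was at 0.277 of its NT ratio, and Clec4d, Clec4a2 and Clec5a at 0.517, 0.581 and 0.607, all without overlap. Clec4e, Clec4a1 and Clec4a3 were at 0.514, 0.510 and 0.674 with overlapping groups. Clec12a overlapped too, at 10.1 ± 1.06 in KE and 11.7 ± 2.12 in NT, a ratio of 0.863. These ratios are descriptions, since the receptors were picked for being low in KE.

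**Figure D3:**
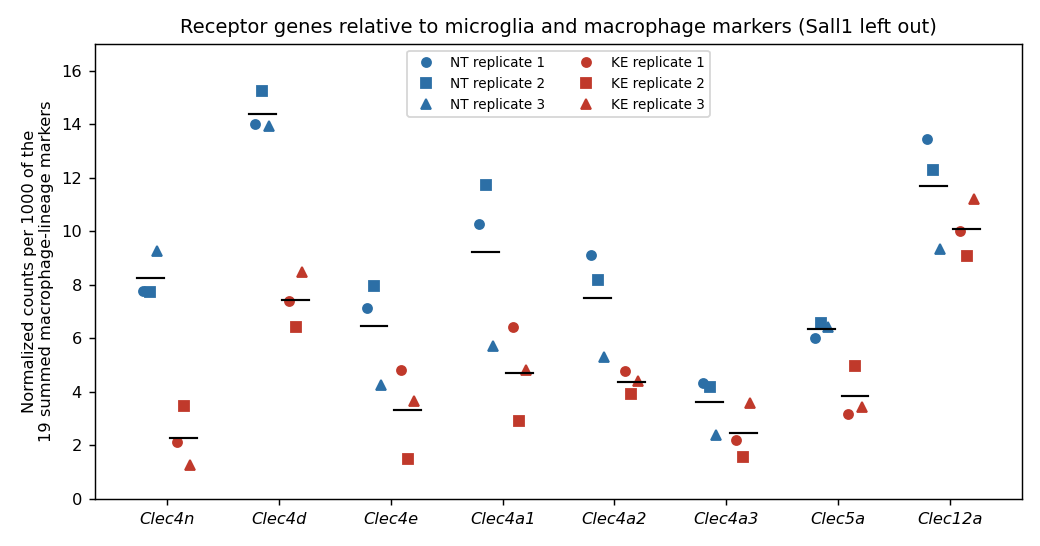
Normalized counts of each receptor gene per 1000 normalized counts of 19 summed microglia and macrophage markers (Sall1 left out), 1 symbol per culture, NT in blue, KE in red, bars at the group means. Clec4n shows the widest gap relative to its level, and the Clec12a groups overlap.

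Other cell types were checked by the same kind of list, beside 26% of all genes tested called lower and 25.3% higher. Border macrophage markers summed to 247 to 310 in KE and 2385 to 2763 in NT, of which 10.6% was left, and 4 of 5 tested were lower, among them Mrc1 and Pf4. The call of another of the 4, Cbr2 (−0.75), was lost without KE replicate 3, NT replicate 1 or NT replicate 3 and without the filter (limma, Benjamini-Hochberg adjusted p 0.0518 to 0.0811). The defining markers Cd163 and Lyve1 stayed at or under 3.11 normalized counts in every culture. Markers of monocytes, dendritic cells and neutrophils summed to 149 to 175 in KE and 346 to 390 in NT. Of these, S100a9 and Ly6g were at 0 in all cultures and Ccr2 reached at most 5.64. S100a8, also below the filter, was at 0 in all KE cultures and at 10.9, 8.22 and 19.2 in NT. Itgax, below the filter too, was at 1.81 to 3.75 in KE and 11.4 to 14.5 in NT. Csf3r, which was tested, fell with a log2FC of −3.34. The other gene tested from this list, Zbtb46, a dendritic cell factor, was not called (−0.004) and made up most of the KE sum, with KE and NT means of 136.5 and 136.6. Astrocyte markers summed to 149078 to 151320 in KE and 107988 to 113021 in NT, with 6 of 9 called higher and 1 lower. Under quantile normalization 5 were higher, since the call of Slc1a3, the glutamate transporter GLAST, was lost (limma, Benjamini-Hochberg adjusted p = 0.209). Of neuron markers, 1 of 5 tested was higher and 2 lower, and of vascular and fibroblast markers 2 of 5 were higher and 2 lower. The higher call of Lum (0.39), whose groups overlapped, was lost without KE replicate 2 or 3, NT replicate 2 or 3 or the trend (limma, Benjamini-Hochberg adjusted p up to 0.0856). The lower call of Pecam1 (−0.86) was lost without NT replicate 1 or 2 or the filter (limma, Benjamini-Hochberg adjusted p up to 0.0723). Of oligodendrocyte lineage markers, 7 of 7 were lower with a median log2FC of −0.55, and 3 of them lost the call without KE replicate 1. Each of these sums, neuron, vascular and oligodendrocyte markers included, gave the smallest possible exact permutation p of 0.1.

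Most signalling partners of the receptors were lower in KE. Of 25 partners, 23 passed the filter, and limma called 18 lower and 1 higher (26% of all genes were called lower and 25.3% higher), with a median log2FC of −2.47. Both adaptors that passed were lower. Fcer1g, on which Clec4n, Clec4d and Clec4e depend, was at 244, 355 and 239 in KE and 3138, 3364 and 2027 in NT, a log2FC of −3.33 (limma, Benjamini-Hochberg adjusted p = 1.6e-07). Tyrobp, the partner of Clec5a, was at 188, 235 and 140 in KE and 2265, 2083 and 1959 in NT, a log2FC of −3.51 (limma, Benjamini-Hochberg adjusted p = 2.7e-08). No KE culture came near the NT range for either adaptor. Hcst, the other partner of Clec5a, stayed at or under 11.0 normalized counts and was not tested.

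Of 17 kinases and downstream adaptors tested, 13 were lower, 1 higher and 3 not called. Among those that fell were Card9, which links Syk to NF-κB (log2FC −3.88), the exchange factor Vav1 (−3.20) and the linker Blnk (−3.16). Syk itself, the kinase shared by the activating receptors, fell by 2.47 on the log2 scale and kept 17.4% of its NT mean. Plcg2, Vav3, Tec, Lyn, Fyn and Prkcd were lower by smaller amounts, from −1.61 to −0.24, and the call of Prkcd was lost without KE replicate 1, NT replicate 1 or NT replicate 2 and without the trend (limma, Benjamini-Hochberg adjusted p up to 0.116). Src rose, with a log2FC of 0.31. Bcl10 and Malt1, which act with Card9 but also in other cell types, and Plcg1 were not called, with log2FCs of −0.06, −0.11 and −0.02. Among phosphatases, Inpp5d (−3.40) and Ptpn6 (−3.15), of the kind that inhibitory receptors recruit, fell, as did Ptprc (−3.37), the leukocyte surface phosphatase CD45, and Ptpn11, present in most cells, was not called at −0.04.

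**Figure D4:**
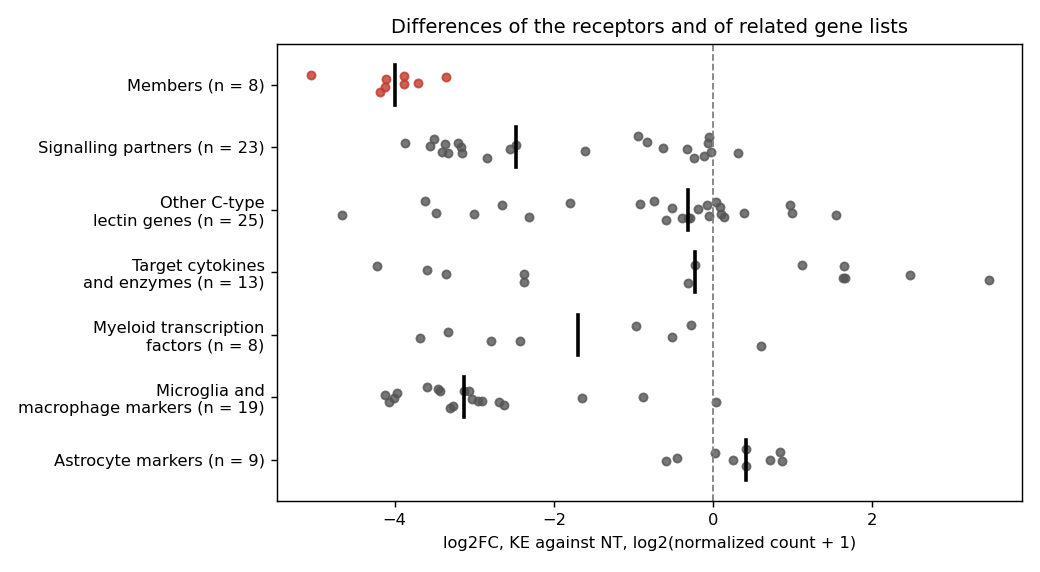
log2FC (KE against NT, on log2(normalized count + 1)) of the genes above the filter in 7 lists, 1 point per gene, with the list's median as a bar and 0 as a dashed line. The 8 receptors (red) lie between −5.05 and −3.36, whereas the other C-type lectin genes and the targets spread to both sides of 0.

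Other C-type lectin genes were listed for comparison. Of 74 listed, 73 were in the table, 17 were at 0 in every culture and 25 passed the filter, of which limma called 11 lower, 3 higher and 11 not, with a median log2FC of −0.31, where 51.3% of all genes tested were called in either direction. The falls were largest for Mrc1, the mannose receptor (−4.66), Clec7a, the beta-glucan receptor Dectin-1 (−3.61), Cd69, an activation marker (−3.48), and the scavenger receptor Colec12 (−3.003). Mrc1 was at 18.9, 17.5 and 18.1 in KE and 537, 401 and 521 in NT. Clec7a was at 65.7, 137 and 96.7 in KE and 1260, 1087 and 1201 in NT. Neither shared the low value of NT replicate 3 seen for Clec4a1. The 3 higher genes were Klrg2 (1.55), Clec2d (0.99) and Layn, a hyaluronan receptor (0.97). Klrg2 had an NT mean of 8.31 and passed the filter through KE alone. Among the lower genes, Olr1 (−1.80) passed through NT alone, with means of 8.30 in KE and 30.3 in NT. The brain proteoglycans Bcan and Vcan, which also carry a C-type lectin domain, were not called, while Ncan was called lower at −0.19, a call lost without KE replicate 1 or 3 or NT replicate 2 or 3, without the trend and without the filter (limma, Benjamini-Hochberg adjusted p up to 0.146). The call of Clec2l at −0.59 was lost without KE replicate 1 or 2 or NT replicate 1 or 2 (limma, Benjamini-Hochberg adjusted p up to 0.118). It was also lost under a replicate block (limma, Benjamini-Hochberg adjusted p = 0.0519), under quantile normalization (0.0872) and without the filter (0.0641). Of the 17 other group II genes, the closest relatives of the Clec4 genes, none passed the filter, 7 were at 0 throughout and the highest value in any culture was 11.5.

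Cytokines, enzymes and early response factors that Syk and Card9 signalling is known to induce were listed as targets. Of 14 listed, 13 passed the filter, with 6 called higher, 5 lower and 2 not, beside 25.3% higher and 26% lower over all genes tested, and a median log2FC of −0.22. Tnf (−3.60), Ccl3 (−3.36), Il1b (−2.37) and Ccl4 (−2.37) fell, and so did Il10. Il10 was at 2.71, 0 and 0.905 in KE, within the 3 reads that a value of 0 allows, and at 45.6, 56.8 and 16.3 in NT, so that it passed the filter through NT alone and its fitted log2FC depends on the pseudocount. Ptgs2, the inducible cyclooxygenase (3.46), Il6 (2.48), the neutrophil chemokines Cxcl1 (1.65) and Cxcl2 (1.63), Nos2 (1.64) and the transcription factor Egr2 (1.12) rose. Il6 was at 480, 469 and 566 in KE and 120, 110 and 54.6 in NT, while Tnf was at 54.2, 35.0 and 51.6 in KE and 713, 852 and 305 in NT. The groups did not overlap for either, in opposite directions. These genes also have inducers other than the receptors.

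Of 8 tested transcription factors that act in myeloid cells, 7 were called lower and 1 higher, beside 26% and 25.3% of all genes tested. Spi1, which encodes PU.1, the factor that myeloid cells depend on, was at 62.2, 95.1 and 40.5 in KE and 832, 1037 and 620 in NT, a log2FC of −3.69 (limma, Benjamini-Hochberg adjusted p = 9.9e-07). Ikzf1 (−3.33), Irf8 (−2.79) and Irf5 (−2.42) fell as well. Cebpa (−0.52) and Runx1 (−0.28) were lower by less, and the call of Runx1 was lost without NT replicate 2 (limma, Benjamini-Hochberg adjusted p = 0.0756). Cebpb rose, with a log2FC of 0.60.

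Outside the set, the 5 genes whose profile over the 6 cultures lay closest to the mean profile of the 8 receptors, among 12064 genes with a mean of at least 100, were Adgre1, Igsf6, Lilrb4a, Alox5ap and Pik3cg. Their root mean square distances from it were 0.064 to 0.172 log2 units, and their log2FCs −4.02 to −3.83. Adgre1, the macrophage antigen F4/80, was the closest, at 623, 799 and 644 in KE and 12444, 13778 and 7844 in NT. The receptors themselves lay 0.130 (Clec4a2) to 0.730 (Clec4n) from their own mean profile.

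The 6 Clec4 receptor genes span 370708 bases of chromosome 6 (chr6:122896122-123266829, GRCm39). Of 22 annotated genes in that span and the 3 next to it on either side, 16 are not among the receptors, 11 of these are in the table, and 8 were at 0 in every culture. The neighbour that passed the filter was Necap1, an endocytosis adaptor gene outside the span, at 1523, 1388 and 1520 in KE and 1499, 1381 and 1333 in NT, with a log2FC of 0.07 (limma, Benjamini-Hochberg adjusted p = 0.413). Clec4a4, the receptor gene nearest to Clec4a2 in sequence, was at 0 in all KE cultures and at 4.95, 1.03 and 2.88 in NT, and Clec4b1 reached 2.07 in 1 NT culture. Within the span, the 6 receptors were the only genes of the table above the filter. On the opposite strand, the annotation places Gm67020 over Clec4a2 and Gm68468 over Clec4d, and whether counting used the strand is not given in the sources used here.

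The coding sequences show which reads could be mistaken for each other. Clec4a2 and Clec4a4 were identical in 85.0% of aligned columns, Clec4a2 and Clec4a3 in 74.97%, and Clec4a1 and Clec4a3 in 68.7%. Clec4n, Clec4d and Clec4e were 54.5% to 57.6% identical, and Clec5a stood farthest from Clec10a, at 38.2%. No 31-base stretch of the canonical transcripts of Clec4d, Clec4e, Clec4a1, Clec5a and Clec12a occurs in another gene, against 1.32% of those of Clec4a3, 2.48% of those of Clec4n and 14.8% of those of Clec10a, the last with Mgl2.

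**Figure D5:**
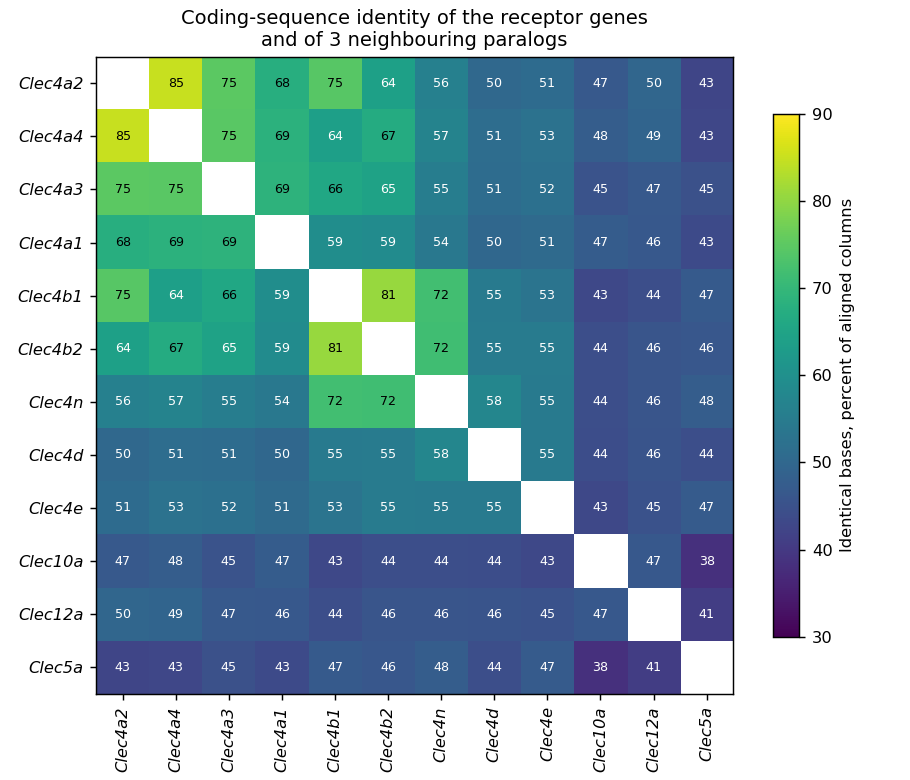
Identical bases, in percent of aligned columns, between the coding sequences of the 9 receptor genes and of Clec4a4, Clec4b1 and Clec4b2. The highest values are those of Clec4a2 with Clec4a4 (85.0%) and of Clec4b1 with Clec4b2 (80.7%), and the lowest is that of Clec5a with Clec10a (38.2%).

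Promoters were read from RefSeq (GRCm38.p6, 250 bases before to 50 after the start) as a description of sequence. Whether PU.1 binds or regulates these genes was not tested, and promoters of other myeloid genes were not compared. The table holds 8 promoters of 7 of the 9 genes, 2 of them for Clec4a3; Clec4n and Clec10a were not found in it. The core of the PU.1 site, GAGGAA on either strand, occurs in 6 of the 8 promoters and in 6 of the 7 genes, against 28.3% of 32851 promoters of the same length. The upstream 250 bases of these 6 are given 5′ to 3′ on the gene's strand, with GAGGAA or its complement TTCCTC in capitals.
Clec5a (chr6:40585806-40586055, minus strand): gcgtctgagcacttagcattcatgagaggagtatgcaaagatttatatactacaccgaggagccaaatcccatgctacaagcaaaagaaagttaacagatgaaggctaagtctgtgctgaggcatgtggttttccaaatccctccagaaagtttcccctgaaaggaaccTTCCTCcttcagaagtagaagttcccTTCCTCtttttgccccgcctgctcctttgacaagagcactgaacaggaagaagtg
Clec4a1 (chr6:122921598-122921847, plus strand): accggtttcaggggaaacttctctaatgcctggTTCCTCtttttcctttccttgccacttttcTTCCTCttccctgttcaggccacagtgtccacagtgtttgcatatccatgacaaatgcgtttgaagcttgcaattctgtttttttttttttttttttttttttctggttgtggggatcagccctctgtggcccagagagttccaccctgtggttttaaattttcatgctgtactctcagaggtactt
Clec4a3, second start (chr6:122952394-122952643, plus strand): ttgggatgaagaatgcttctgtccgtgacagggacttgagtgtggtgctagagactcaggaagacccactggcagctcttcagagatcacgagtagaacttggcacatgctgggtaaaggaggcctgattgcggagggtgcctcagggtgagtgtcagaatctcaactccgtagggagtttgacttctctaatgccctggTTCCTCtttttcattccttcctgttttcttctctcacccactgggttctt
Clec4d (chr6:123261857-123262106, plus strand): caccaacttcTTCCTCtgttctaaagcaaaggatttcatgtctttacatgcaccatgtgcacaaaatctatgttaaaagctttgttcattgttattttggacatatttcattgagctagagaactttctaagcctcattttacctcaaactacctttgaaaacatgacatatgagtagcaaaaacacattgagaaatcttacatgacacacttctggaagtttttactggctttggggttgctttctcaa
Clec4e (chr6:123289872-123290121, minus strand): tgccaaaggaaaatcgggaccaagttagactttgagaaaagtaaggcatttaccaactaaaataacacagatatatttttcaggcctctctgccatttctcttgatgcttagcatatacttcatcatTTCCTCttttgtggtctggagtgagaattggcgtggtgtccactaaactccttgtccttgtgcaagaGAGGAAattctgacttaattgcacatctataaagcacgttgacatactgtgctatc
Clec12a (chr6:129349994-129350243, plus strand): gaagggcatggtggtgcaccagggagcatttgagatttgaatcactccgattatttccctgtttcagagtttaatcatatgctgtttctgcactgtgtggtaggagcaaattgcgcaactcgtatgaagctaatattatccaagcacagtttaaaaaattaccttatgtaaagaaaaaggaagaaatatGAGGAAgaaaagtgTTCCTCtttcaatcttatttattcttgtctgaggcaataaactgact

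Clec5a, Clec4a1, Clec4e and Clec12a each hold 2 copies in the upstream bases, Clec4a3 holds 1, and Clec4d holds 1 there and others at 8 and 40 bases after the start. Positions name the first base of a match, with −1 the base before the start. The matches nearest the start were at −55 in Clec5a, −50 in Clec4a3, −56 in Clec4e and −47 in Clec12a, whereas those of Clec4a1 were at −217 and −187. Clec4a1 and Clec4a3 share a stretch that holds this motif, identical in 45 of 51 aligned columns and starting at −234 and −68. It is shown because no other pair of these promoters had a higher alignment score.
Clec4a1: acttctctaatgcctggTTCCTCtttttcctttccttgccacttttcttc
Clec4a3: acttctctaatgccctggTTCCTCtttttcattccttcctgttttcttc

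The other motifs searched on both strands occurred in fewer of the receptor genes than the PU.1 core. Except for the C/EBP form TTNNGNAA, they were also rarer over all promoters, so their smaller counts do not set the PU.1 core apart. The C/EBP form TTNNGNAA occurred in 5 of the 7 genes and in 40.7% of all promoters, and the full palindrome TTGCGCAA, which overlaps it, in Clec12a at −140 and in 0.183% of all promoters. The AP-1 form TGANTCA was found in Clec12a at −213 and in Clec4a2 at 32 bases after the start (7.81% of all promoters), and the interferon-stimulated form, GAAA, any 2 bases and GAAA, in Clec4d (3.44%). The TATA form TATAAA was found in Clec4a2, Clec4e and Clec5a (13.6%), at −29 in Clec4e. Matches are descriptions of letters, not sites of binding.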

How the data were processed

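RNA-seq was analysed in 6 astrocyte cultures, 3 KE and 3 NT, each grouped by its sample label. The authors deposited a signal of normalized counts for 55357 genes: Salmon gene counts divided by DESeq2's size factors, after Trim Galore and STAR according to the submitters' processing notes. The labels name GRCh38 as the build, but all 55357 identifiers are mouse, and the study's methods name GRCm39 for its mouse samples. Because the table holds normalized counts and not counts, the planned test for normalized values was used. Only 72.7% to 75.8% of the low values came within 0.1 of a whole read, under the 95% needed to recover reads. Reads given as approximate are values divided by the most frequent low value of a culture.

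The values were transformed as log2(value + 1), and genes with a mean of at least 10 (15280) entered limma (version 3.58.1, R 4.3.3), which compared the groups under a variance trend. The tests were two-sided, adjusted by Benjamini-Hochberg over all genes tested, with a threshold of 0.05. The fit was tested on simulated data. The receptors and gene lists were chosen with earlier results of these data known. The receptors are named throughout, list genes that pass the filter are named from the largest changes, and the 5 most similar genes were taken by root mean square distance of centred log2 profiles among genes with a mean of at least 100. Coordinates are from Gencode vM39 on GRCm39, which holds 54749 of the identifiers, and promoters from RefSeq on GRCm38.p6. A planned comparison of protein sequences was not run. A few listed genes are counted but not reported by name. Alternatives were other pseudocounts, filters and normalizations, no trend, a replicate block, and leaving out each culture. Leaving Sall1 out of the marker sum was added after the data were seen.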

Additional observations from a re-analysis of the deposited data

How the results depend on the processing

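The 8 receptor log2FCs lay between −5.55 and −3.20 in the 80 comparisons with an alternative that could change them, and none changed direction or moved by more than the spread between cultures. The filters, the trend and the replicate block cannot change a log2FC in this balanced design. Over 34 results and 469 comparisons, 36 of them fixed in that way, 16 moved. Without a filter, 5 other C-type lectin genes were higher (3 with it) and 3 markers of monocytes, dendritic cells and neutrophils were lower (1 with it). Without the trend, 2 neuron markers were higher (1 with it), 1 vascular or fibroblast marker was higher (2 with it), and 4 oligodendrocyte lineage markers were lower (7 with it). With a mean of at least 50, 1 vascular or fibroblast marker was lower (2 at 10). Leaving out 1 culture gave 4 to 7 lower oligodendrocyte lineage markers, with 4 without KE replicate 1, KE replicate 3 or NT replicate 2. It gave 1 to 2 higher vascular or fibroblast markers, with 1 without KE replicate 2 or 3 or NT replicate 2 or 3, and 1 to 2 lower ones, with 1 without NT replicate 1 or 2. The log2 ratio of summed receptors to summed markers was −0.81 without Sall1 (−1.20 with it) and −1.32 to −1.13 when a culture was left out. The cause of these changes was not tested. Same-numbered cultures correlated at 0.059 to 0.066 in their deviations from the group means, and others at −0.050 to −0.010. Each culture correlated best with its own number, but centring within groups of 3 ties these small values together. Whether same-numbered cultures shared a preparation was not tested and is not stated in the sources. Under a replicate block, 3967 genes were higher and 4079 lower, and 7669 of these 8046 were also among the 7844 called without it. Depth limits the KE levels of the receptors, most of all Clec4n, which rests on approximately 9.98 to 27.6 reads per KE culture. Clec4e rests on approximately 11.7 to 37.5 reads and Clec4a3 on 12.6 to 28.3.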
